A study of Coturnix japonica with 4 samples.

Results

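The genes described here, apart from ERBB3, carry the KIT and endothelin signals that guide melanoblasts, the unpigmented precursors of pigment cells, through embryonic skin. They were chosen by name as a set of 10 genes, and 9 of them were analysed, of 12383 genes in all. They are the receptors KIT, ERBB3, EDNRA and EDNRB, the ligands KITLG, EDN1, EDN2 and EDN3, and ECE1, an enzyme that activates endothelins. ERBB3 is a receptor of neuregulins, a separate signal, and is counted below among the KIT and endothelin genes. EDNRB2, the further endothelin B receptor of birds, was not analysed here. Of the 9 genes, 8 were matched by symbol to the RefSeq annotation of Coturnix japonica 2.1; EDN2 carries the symbol given to it in the authors' deposited table.

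The tissue was skin of Japanese quail (Coturnix japonica) at embryonic day 7, from untreated fertilized eggs, cut from the black or from the yellow stripe. Each stripe has 2 libraries, each pooled from 4 embryos, and the labels name neither a strain nor the sex of the embryos. The analysed tables give 1 value per stripe in RPKM (reads per kilobase of transcript, scaled to all mapped reads), so no value below has a replicate error, and the depth behind the values is unknown. The question put by the design is which genes differ between the stripes.

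Melanoblasts leave the neural crest and move under the ectoderm into the skin and feather buds. KIT is a receptor tyrosine kinase on their surface, and its ligand KITLG, the stem cell factor, is made by surrounding skin cells and keeps melanoblasts alive, dividing and moving. Endothelins are short peptides cut from longer precursors by ECE1. EDN3 acts on endothelin B receptors of neural crest cells and melanoblasts to expand the lineage, and in birds EDNRB2 is the form known for melanoblasts that take the path under the ectoderm. EDNRA is known mainly for EDN1 signals in mesenchyme and in the muscle of vessel walls.

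The markers of skin were present in both stripes. All 9 dermal fibroblast markers were at a mean of at least 1 RPKM, with a summed level of 2533 RPKM in skin labelled black and 2443 RPKM in skin labelled yellow, led by COL1A2 (539 and 529 RPKM), DCN (531 and 439 RPKM) and COL3A1 (434 and 431 RPKM), genes of collagen matrix. The 8 epidermal markers found, of 12 listed, summed to 335 and 360 RPKM, led by EPCAM (111 and 126 RPKM), DSP (98.5 and 108 RPKM) and TP63 (37.6 and 41.8 RPKM). The melanocyte markers ran against the stripe names. All 12 were measured, their summed level was 307 RPKM in skin labelled black and 748 RPKM in skin labelled yellow, and 5 of them were called at q under 0.05 by the authors' deposited table, each higher in skin labelled yellow, as were 0.169% of the 10061 genes at a mean of at least 1 RPKM. The stripes are therefore named throughout only by their labels, as skin labelled black and skin labelled yellow. ASIP, the agouti signal that favours yellow pigment, was higher in skin labelled black, with 29.4 and 10.4 RPKM and q = 0.0438 in the authors' deposited table. Its direction was opposite to that of the melanocyte markers, and so it too ran against the stripe names. Whether the stripe names of the columns were exchanged cannot be told from the values analysed, and an exchange would turn every direction given below. In tissue samples such as these, fewer cells of a type and less RNA per cell cannot be told apart.

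None of the KIT and endothelin genes was called different between the stripes. Of the 8 genes with a p under 1, 0 reached a q-value (false discovery rate) under 0.05 in the authors' deposited table, where 0.331% of the 10569 genes with a p under 1 did. At an unadjusted p under 0.05 there were 2, the ligands KITLG and EDN2, against 3.46% of those 10569 genes. Both were higher in skin labelled yellow, a direction with that p in 1.39% of the 10569 genes. Over the 8 genes at a mean of at least 1 RPKM the log2 ratio (black over yellow) had a median of 0.03, and over all 10061 such genes one of -0.00. Of these 8 genes, 5 lay within 1.2-fold between the stripes, a smaller share than the 87.4% of all such genes. With only 8 genes, this difference in shares was not tested.

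**Figure D1:**
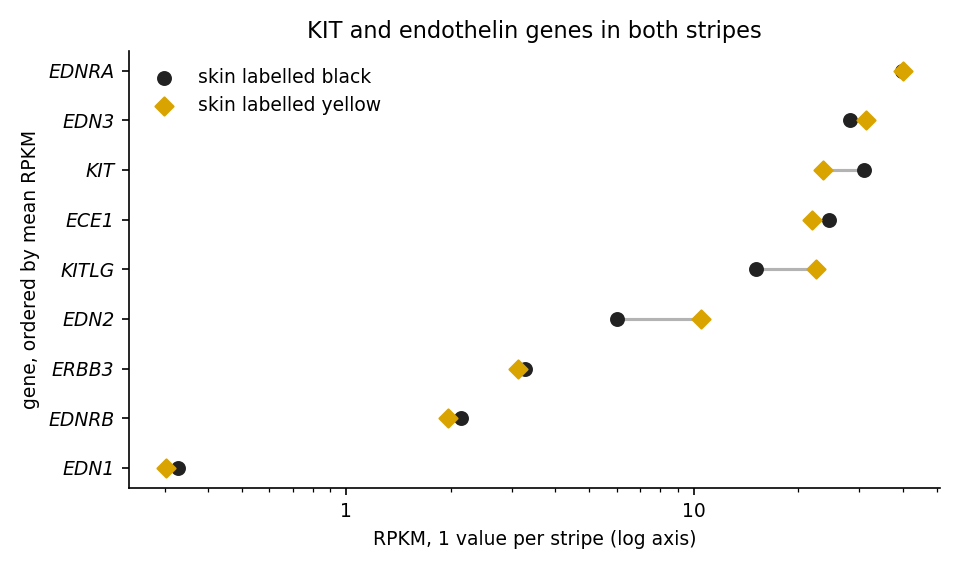
Level of each KIT and endothelin gene in RPKM on a log axis, with a black circle for skin labelled black and a yellow diamond for skin labelled yellow, joined by a line; there is 1 value per stripe and no error. The widest gaps belong to EDN2 (6.02 and 10.5 RPKM) and KITLG (15.1 and 22.4 RPKM), while the symbols of EDNRA lie on top of each other near 40.0 RPKM.

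In both stripes EDNRA stood at the top of the order of levels and EDN1 at the bottom. In skin labelled black the order from high to low was EDNRA, KIT, EDN3, ECE1, KITLG, EDN2, ERBB3, EDNRB and EDN1. In skin labelled yellow EDN3 stood above KIT, and KITLG stood above ECE1, and the rest of the order was the same. With 1 value per stripe there is no spread to tell neighbours in this order apart, and KIT, EDN3, ECE1 and KITLG together spanned 15.1 to 30.8 RPKM in skin labelled black and 21.8 to 31.4 RPKM in skin labelled yellow. EDNRA and these 4 genes were above 10 RPKM in both stripes.

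KIT, the receptor of stem cell factor, had 30.8 RPKM in skin labelled black and 23.6 RPKM in skin labelled yellow. Its ratio of 1.31-fold had p = 0.0554 and q = 1 in the authors' deposited table, so it was not called. Its log2 ratio of 0.39 was above that of 96.0% of the 10061 genes at a mean of at least 1 RPKM, and 674 of those genes lay at least as far apart in either direction. KIT lies between KDR, a receptor of vascular endothelial growth factor, and PDGFRA, a growth factor receptor of mesenchyme, in the RefSeq annotation. Both neighbours had the opposite order, with 14.2 RPKM in skin labelled black and 15.3 RPKM in skin labelled yellow for KDR, and 160 and 183 RPKM for PDGFRA, and neither was called.

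KITLG, the ligand of KIT, had 15.1 RPKM in skin labelled black and 22.4 RPKM in skin labelled yellow. Skin labelled yellow was 1.48-fold higher, with p = 0.00645 and q = 0.503 in the authors' deposited table, where 146 genes had a p this low or lower. Its log2 ratio of -0.57 was among the lowest, with 1.19% of the measured genes below it. The ratios of KIT and KITLG had opposite signs, and neither gene was past the threshold. On the RPKM scale, which is per length, the level of KIT was 2.03 times that of KITLG in skin labelled black and 1.05 times in skin labelled yellow. This receptor to ligand ratio has no replicate error and was not tested.

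Among the endothelins, EDN3 was the most abundant, EDN2 the one with the widest gap, and EDN1 was near the floor. EDN3, the endothelin that expands the melanocyte lineage, had 28.1 RPKM in skin labelled black and 31.4 RPKM in skin labelled yellow, a 1.12-fold ratio with p = 0.457 and q = 1 in the authors' deposited table. EDN2, a close relative of EDN1 that binds the same receptors, had 6.02 and 10.5 RPKM. It was 1.74-fold higher in skin labelled yellow, with p = 0.0025 and q = 0.258 in the authors' deposited table, where 110 genes had a p this low or lower. Its log2 ratio of -0.80 was the lowest of the 9 genes, and 0.537% of the measured genes lay below it. EDN1, known from blood vessel lining and the pharyngeal arches, had 0.33 RPKM in skin labelled black and 0.30 RPKM in skin labelled yellow, under the 1 RPKM taken here as measured. Its p of 1 in the authors' deposited table is the value that marks genes taken here as untested.

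The 3 endothelins summed to 34.5 RPKM in skin labelled black and 42.2 RPKM in skin labelled yellow. EDN3 made up 81.6% of that sum in skin labelled black and 74.4% in skin labelled yellow, and EDN2 17.5% and 24.9%. EDN1 made up 0.949% and 0.716%. The level of EDN3 was 4.67 times that of EDN2 in skin labelled black and 2.995 times in skin labelled yellow.

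Markers of the other skin cells were compared beside KITLG and EDN2. Of the 8 measured epidermal markers, 7 were higher in skin labelled yellow and 1, KRT18 (28.5 and 18.0 RPKM), in skin labelled black. Their median log2 ratio was -0.14, against -0.00 over all measured genes, with 0 past an unadjusted p of 0.05 by the authors' deposited table. KRT5, KRT14, KRT15 and CDH1 of that list were not found. The summed level of 9 smooth muscle and pericyte markers was 96.7 RPKM in skin labelled black and 114 RPKM in skin labelled yellow, led by PDGFRB (33.6 and 30.4 RPKM), MYLK (23.4 and 31.7 RPKM) and ACTA2 (19.1 and 28.6 RPKM). Over the 8 measured genes of this list the median log2 ratio was -0.04, with 3 higher in skin labelled black and 5 in skin labelled yellow. Of that list MYH11, a smooth muscle myosin, was called, with 2.00 RPKM in skin labelled black and 6.97 RPKM in skin labelled yellow and q = 0.0177 in the authors' deposited table. ACTA2, in the same direction, and DES, a filament protein of muscle with 2.94 and 1.36 RPKM, had p = 0.00865 and p = 0.00565 in the authors' deposited table and were not called. Of all genes at a mean of at least 1 RPKM, 0.348% were called and 3.19% had an unadjusted p under 0.05. TAGLN (2.53 and 2.58 RPKM) and CNN1 (0.44 and 0.40 RPKM) of the same list were close between the stripes. The summed level of 8 endothelial markers was 111 and 114 RPKM, led by CDH5 (38.8 and 35.8 RPKM), PECAM1 (16.8 and 17.8 RPKM) and KDR. Over these 8 endothelial markers the median log2 ratio was -0.08, with 3 higher in skin labelled black and 5 in skin labelled yellow. The blood cell list had 3 measured genes, CSF1R (5.82 and 5.23 RPKM), SPI1 (2.59 and 2.14 RPKM) and PTPRC (1.57 and 1.65 RPKM). These are immune cell genes, and the red cell markers of the list were not found. The fibroblast markers had a median of 0.03 over 9 genes. The part of these cell types in the KITLG and EDN2 values was not tested.

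**Figure D2:**
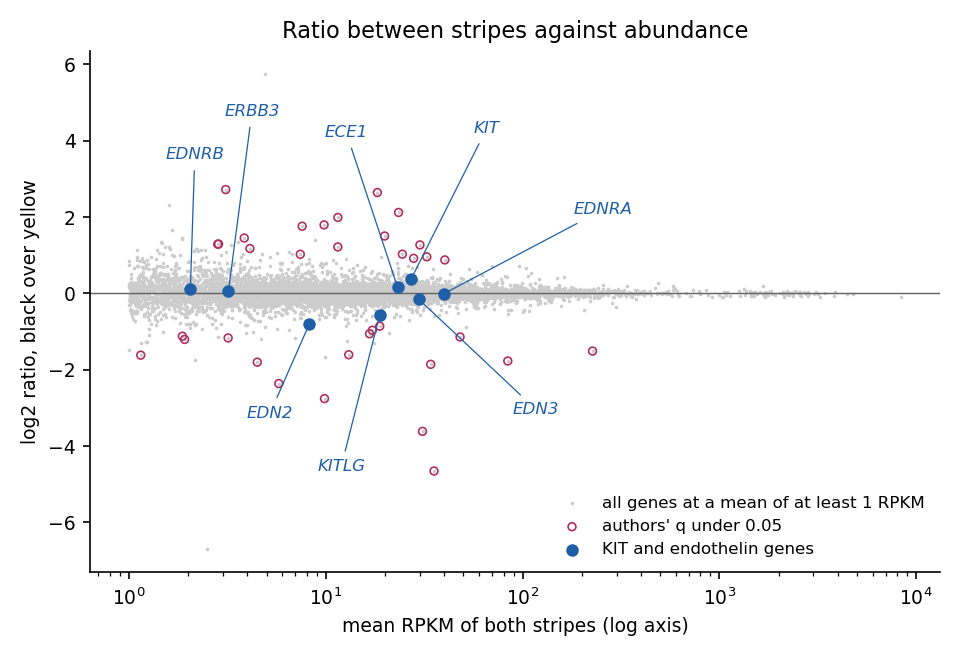
Log2 ratio of black over yellow against the mean RPKM of both stripes on a log axis, for genes at a mean of at least 1 RPKM with a value above 0 in both stripes (grey), the genes called at q under 0.05 by the authors' deposited table (red rings), and the KIT and endothelin genes (blue, named). The blue points lie inside the grey cloud of uncalled genes, with EDN2 at -0.80 and KITLG at -0.57 on its lower side and KIT at 0.39 on its upper side. Of all genes at a mean of at least 1 RPKM, 137 lay at least as far apart as EDN2, 308 as KITLG and 674 as KIT.

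No ratio as small as that of EDN2 or KITLG was called at their abundance. Among 6781 genes with a mean from 5 to 50 RPKM, 23 were called at q under 0.05 by the authors' deposited table, the closest of them being EML1 at 1.82-fold. Of the 103 genes in that range at least 1.5-fold apart, 80 were not called. The ratios of 1.74-fold for EDN2 and 1.48-fold for KITLG lie under the smallest one called there, so a missing call does not show that the stripes had equal levels.

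The endothelin receptors differed from each other in level and little between the stripes. EDNRA, the type A receptor, had 39.9 RPKM in skin labelled black and 40.0 RPKM in skin labelled yellow, with a log2 ratio of -0.01 and p = 0.98 in the authors' deposited table. EDNRB, the type B receptor of early neural crest and its glial and neural derivatives, had 2.14 and 1.96 RPKM, with p = 0.7 in the authors' deposited table. The level of EDNRA was 18.6 times that of EDNRB in skin labelled black and 20.4 times in skin labelled yellow. EDNRA thus made up 94.9% and 95.3% of the sum of these 2 receptors, a sum that leaves out EDNRB2.

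ECE1, the membrane protease that cuts big endothelins to their active form, had 24.5 RPKM in skin labelled black and 21.8 RPKM in skin labelled yellow, a 1.12-fold ratio with p = 0.455 in the authors' deposited table. In the RefSeq annotation ECE1 overlaps ALPL, an alkaline phosphatase with 7.59 and 6.72 RPKM, and the sources used here do not say if the counting used strand. The ECE1 and ALPL values are therefore uncertain where they share reads.

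ERBB3, the neuregulin receptor of Schwann cell precursors and melanoblasts that signals together with ERBB2, had 3.28 RPKM in skin labelled black and 3.13 RPKM in skin labelled yellow, with p = 0.813 in the authors' deposited table. Its partner ERBB2 had 14.1 and 13.7 RPKM. Its ligands NRG1 (0.47 and 0.49 RPKM) and NRG2 (0.82 and 0.75 RPKM) were under 1 RPKM in both stripes. Of the 10 Schwann cell and glia markers, 9 were found and 4 were at a mean of at least 1 RPKM, with summed levels of 128 and 130 RPKM over all 9. The most abundant were PMP22 (69.0 and 76.5 RPKM), NGFR (32.7 and 26.7 RPKM) and FABP7 (13.6 and 18.1 RPKM). FOXD3, an early neural crest regulator, had 11.8 RPKM in skin labelled black and 7.36 RPKM in skin labelled yellow, with p = 0.0148 and q = 0.767 in the authors' deposited table.

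The values of KIT, ERBB3 and EDNRB were set beside those of the melanocyte markers. Their black over yellow log2 ratios were 0.39, 0.07 and 0.12, none of them called, and 57.1% of the measured genes lay at least as far apart as ERBB3 and 33.8% as far as EDNRB. EDNRB was low, with 2.14 RPKM in skin labelled black and 1.96 RPKM in skin labelled yellow. The form known in birds for melanoblasts is EDNRB2, which was not analysed. Of the 12 melanocyte markers, 11 had a ratio below 0 and 7 passed p under 0.05, unadjusted, by the authors' deposited table, all 7 higher in skin labelled yellow, where 1.28% of the 10061 genes did. TYRP1, an enzyme of eumelanin synthesis, had a log2 ratio of -4.65, TYR, the rate-limiting melanin enzyme, -3.61 PMEL, the melanosome fibril protein, -1.51, and GPNMB, a melanosome glycoprotein, -0.44. The transcription factors of the lineage lay between these and KIT, with 22.4 RPKM in skin labelled black and 25.2 RPKM in skin labelled yellow for SOX10, 21.9 and 26.0 RPKM for MITF, and 6.89 and 5.75 RPKM for PAX3, none of them called. The level of KIT was 1.38 times that of SOX10 in skin labelled black and 0.936 times in skin labelled yellow. Against PAX3, it was 4.47 times as high in skin labelled black and 4.10 times as high in skin labelled yellow. Against TYR, KIT was 6.58 times as high in skin labelled black and 0.411 times as high in skin labelled yellow. The difference between the ratio of KIT and that of any marker was not tested.

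**Figure D3:**
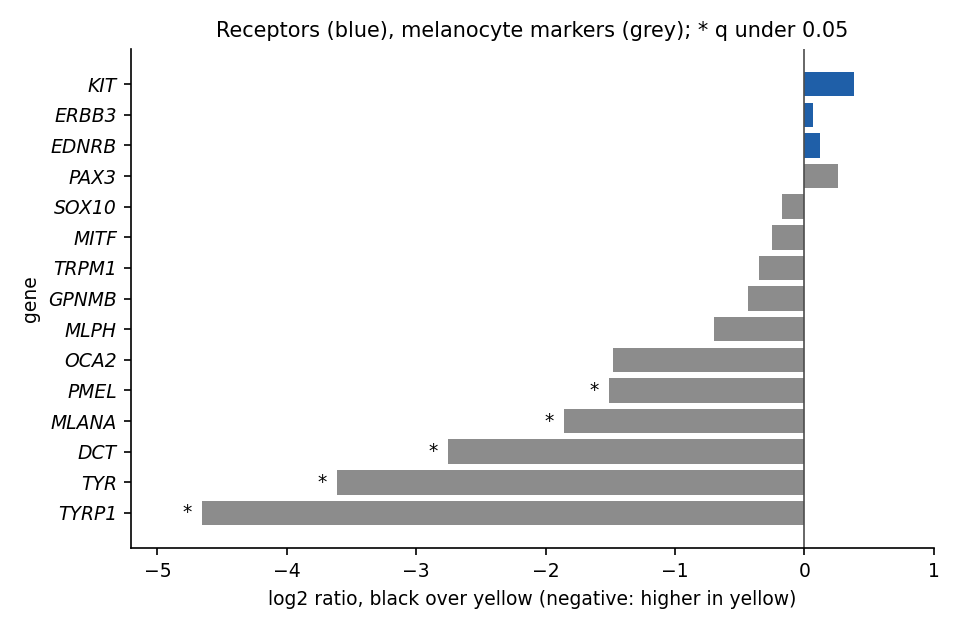
Log2 ratio of black over yellow for the 3 receptors KIT, ERBB3 and EDNRB (blue bars) and 12 melanocyte markers (grey bars), with a star where the q-value in the authors' deposited table was under 0.05. The receptor bars and PAX3 point to the black side, with KIT at 0.39, and the other 11 markers point to the yellow side, down to -4.65 for TYRP1. The receptor EDNRA, with a log2 ratio of -0.01, is not drawn, and EDNRB2, the form known in birds for melanoblasts, was not analysed.

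Other genes of these pathways were followed in 6 lists with 96 genes, of which 84 were found by name and 75 of these were at a mean of at least 1 RPKM. GRK2 and GRK3, deposited under the older symbols ADRBK1 and ADRBK2, were among those not found and are not counted. None of the 75 was called at a q-value under 0.05, against 0.348% of all genes at a mean of at least 1 RPKM. Without adjustment, 3 of the 75 (4.00%) passed p under 0.05 by the authors' deposited table, against 3.19% of all such genes. Of these, 2 were higher in skin labelled black (1.91% of all such genes) and 1 in skin labelled yellow. The median log2 ratio of the 75 genes was -0.01, and 62 of them (82.7%) lay within 1.2-fold, against 87.4% of all measured genes.

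Of the 22 measured adaptors and kinases of KIT signalling, 11 were higher in each stripe and 0 had a p under 0.05, with log2 ratios from -0.37 to 0.19. The adaptor GRB2 had 53.4 RPKM in skin labelled black and 52.0 RPKM in skin labelled yellow, the PI3 kinase subunit PIK3R2 had 46.0 and 48.8 RPKM, and the phosphatase PTPN11 had 45.6 and 43.9 RPKM. The 17 measured genes of the RAS and MAP kinase cascade, which carries the KIT signal, had a median of -0.01 and 0 with a p under 0.05. HRAS had 133 and 141 RPKM. These 4 genes were named for their abundance, and each lay within 1.2-fold between the stripes, as did 87.4% of all measured genes. Some other genes of both lists lay further apart.

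The list of endothelin processing and breakdown had 7 measured genes and a median log2 ratio of 0.16, with 6 higher in skin labelled black. The median of all measured genes was -0.00. Its summed level over the 9 genes found had the other direction, with 107 RPKM in skin labelled black and 114 RPKM in skin labelled yellow. MMEL1, a peptidase related to neprilysin, had 1.53 RPKM in skin labelled black and 0.80 RPKM in skin labelled yellow, with p = 0.0102 and q = 0.637 in the authors' deposited table. Its mean of 1.17 RPKM was only just above the 1 RPKM taken here as measured. CTSA, a lysosomal carboxypeptidase that can degrade endothelin and the most abundant gene of the list, had 51.2 and 64.8 RPKM. The precursor convertases PCSK6 (19.5 and 17.4 RPKM) and FURIN (12.1 and 10.9 RPKM), enzymes that cut prohormones, had no p under 0.05.

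The 20 G proteins and effectors of endothelin receptors that were found by name and measured had a median of -0.03. RGS2, which shortens signals through Gq proteins, had 33.9 RPKM in skin labelled black and 47.6 RPKM in skin labelled yellow, with p = 0.0291 and q = 1 in the authors' deposited table. The inhibitory G protein subunits GNAI3 (107 and 110 RPKM) and GNAI2 (82.4 and 80.7 RPKM) were the most abundant. The 5 measured neuregulin and ERBB genes had a median of -0.02 and 0 with a p under 0.05, led by EGFR with 39.2 and 44.0 RPKM and the ERBB2 partner ERBIN with 19.6 and 19.8 RPKM.

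The proteases that can release membrane-bound ligands had 4 measured genes. MMP2, a gelatinase, had 95.5 RPKM in skin labelled black and 70.7 RPKM in skin labelled yellow, with p = 0.025 and q = 1 in the authors' deposited table. ADAM17 (38.6 and 39.6 RPKM) and ADAM10 (33.2 and 33.9 RPKM), the main sheddases of cell surface proteins, had no p under 0.05. MMP9, known in bone marrow of mice for releasing KITLG, had 0.48 and 0.76 RPKM.

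**Figure D4:**
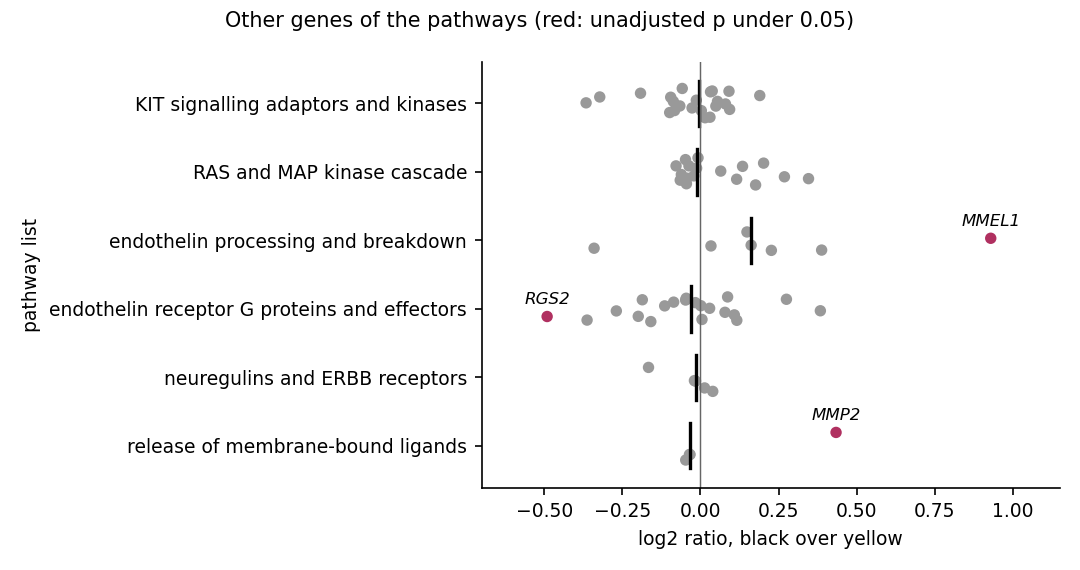
Log2 ratio of black over yellow for the measured genes of the 6 pathway lists, 1 point per gene, with a black line at each list's median; vertical scatter within a list only separates the points. The 3 red, named points (MMEL1, RGS2 and MMP2) passed p under 0.05 without adjustment by the authors' deposited table, and none passed q under 0.05.

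Genes with the most similar pair of values were found by their distance in log2 RPKM, a likeness over only 2 values. Nearest to KIT were SMARCA4 (29.8 RPKM in skin labelled black and 24.0 RPKM in skin labelled yellow, distance 0.05) and CPSF1 (29.2 and 23.5 RPKM, distance 0.08). Nearest to KITLG were PDGFC (14.3 and 22.4 RPKM, distance 0.08) and CPA6 (14.3 and 23.2 RPKM, distance 0.09). Nearest to EDN2 were DUSP10 (5.89 and 10.7 RPKM, distance 0.04) and PSCA (6.26 and 10.5 RPKM, distance 0.06).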

How the data were processed

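The authors' deposited tables hold RPKM values, 1 per stripe, made with TopHat2 2.1.1, a spliced aligner, and Cufflinks 2.2, a transcript quantifier, per the submitters' processing notes. The sources used here give neither the build, annotation and strand setting nor the way 2 libraries became 1 value. They also do not say how the 2 libraries of each stripe entered the authors' p-values and q-values. The authors' p-values and q-values per gene, and their log2 ratio of black over yellow, stand in a QIAGEN export, per the file headers. In all 10503 genes with 0.5 RPKM or more in both stripes, that log2 ratio and the one computed from the RPKM columns differed by under 0.01. A further deposited column marks the genes with p under 0.05, and 2 RPKM columns without a stripe in their name were not used.

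Of 12419 rows, 11 with IDs turned into dates and 25 with 4 repeated IDs, all at 0 RPKM, were left out. Ratios were taken without a pseudocount (Python 3.11.15, pandas 2.3.3). Their code was checked on simulated ratios without noise, which tests the arithmetic only. A gene counts as measured if its mean reached 1 RPKM, as tested if p was under 1, and as called if the authors' q was under 0.05. With 1 value per stripe the RPKM values themselves were not tested. The genes and lists were chosen with earlier results of these data known. Beside the 9 genes, those named are list genes with p under 0.05, the 3 most abundant of each list, and the 2 nearest to KIT, KITLG and EDN2. Some genes that this rule takes are not reported here. Some low or single marker and neighbour genes were named after their values were seen. No sequences or coordinates are shown. Alternatives covered thresholds, floors, pseudocounts and scaling.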

Additional observations from a re-analysis of the deposited data

How the results depend on the processing

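No paired analysis was possible because the analysed tables hold 1 value per stripe, and leaving out single libraries was not run for the same reason. The count of KIT and endothelin genes called was 0 at q under 0.1, at q under 0.01 and with p-values adjusted again over genes at a mean of at least 1 RPKM (EDN2 0.252, KITLG 0.492). It was 2 at unadjusted p under 0.05, where the other pathway genes gave 3 in place of 0, because that threshold makes no adjustment. Pseudocounts of 0.1 and 1 and both scalings moved 0 of 36 recomputed log2 ratios by over 0.1 or across 0. These say little about stability, since no pseudocount can reverse a ratio and scaling shifted all ratios by 0.00 and -0.01. Of 24 recomputed list medians, the KIT signalling list alone changed its sign, from -0.01 to 0.0028 at a floor of 5 RPKM, where fewer genes were counted. Depth and replicate spread are unknown, which limits every value.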
